A study of Mus musculus with 6 samples.

Results

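Liver sinusoidal and lymphatic endothelial cells carry a set of scavenger receptors and lineage markers, and 9 of their genes were followed here by symbol. They were Lyve1, Stab1, Stab2, Mrc1, Fcgr2b, Cd36, Scarb1, Pdpn and Prox1, and all 9 were among the 13595 genes of the deposited table. RNA was measured by poly(A) sequencing in primary CD31-positive cells grown in standard culture after isolation from mouse liver (C57BL6/J, 4 weeks of age, both sexes). Every culture then received 100 µM indoxyl sulfate, a tryptophan metabolite and ligand of the aryl hydrocarbon receptor (AHR), with hypoxia and nutrient deprivation for 6 hours. The comparison is of 3 libraries labelled male (replicates 4, 5 and 6) with 3 labelled female (replicates 4, 5 and 6), and the effect of the treatment itself was not analysed here because both groups carried it. CD31 selection followed by culture sets what the cells can show about the liver. The labels do not say whether the replicates are animals, isolations or wells, so p-values measure the spread between these libraries, which may be technical.

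Sinusoidal endothelial cells line the liver's smallest vessels and clear waste macromolecules from blood by endocytosis through receptors such as the stabilins, the mannose receptor and an Fc receptor. Lymphatic endothelium takes up fluid and cells from tissue, and its identity depends on the transcription factor PROX1. LYVE-1 binds hyaluronan, a matrix sugar, and is made by both kinds of vessel. Several of these genes are also made by macrophages, and podoplanin (Pdpn) is also made by mesothelium and fibroblasts.

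The libraries held from 22303270 to 31189363 reads over the genes of the table. Values are normalized read counts, in which 3 reads correspond to between 0.106 and 0.142. The labels were checked with sex-linked genes. Xist, the RNA of X inactivation, stood at 286 ± 46.7 in the libraries labelled female and 0.323 ± 0.176 in those labelled male (SD, n = 3 each). The Y-linked Ddx3y was nevertheless present in both, at 52.1 ± 4.93 and 57.0 ± 16.8 (SD, n = 3 each), which goes against the female label, and every direction below rests on the labels. Male replicate 4 stood apart from its group: the chi-square per gene, near 1 for sampling noise alone, was 43.6 and 45.4 against the other male libraries, and 5.98 between those. The endothelial markers Cdh5 (VE-cadherin) and Pecam1 (CD31 itself, named after its values were seen) were present in every library. Pecam1 ran from 391 to 423 in the libraries labelled male and from 73.5 to 74.5 in those labelled female.

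Among the 9 genes, Lyve1 and Stab1 were lower in the libraries labelled female, and Pdpn, Scarb1 and Prox1 were higher. These 5 were the ones with enough signal to be tested (3 or more libraries at a normalized read count of 1 or above), and all 5 had a limma adjusted p under 0.05. Over the whole table, 69.3% of the 12568 genes tested were called (34.6% higher and 34.6% lower), so a call by itself sets no gene apart here. Mrc1 and Cd36 were read in every library but too weakly for the filter, Stab2 and Fcgr2b had 10 reads or fewer in each library, and these 4 were not tested. The groups did not overlap for 6 of the 9 genes, against 72.2% of all genes in the table, and for all 5 tested genes, against 74.1% of the genes tested.

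**Figure D1:**
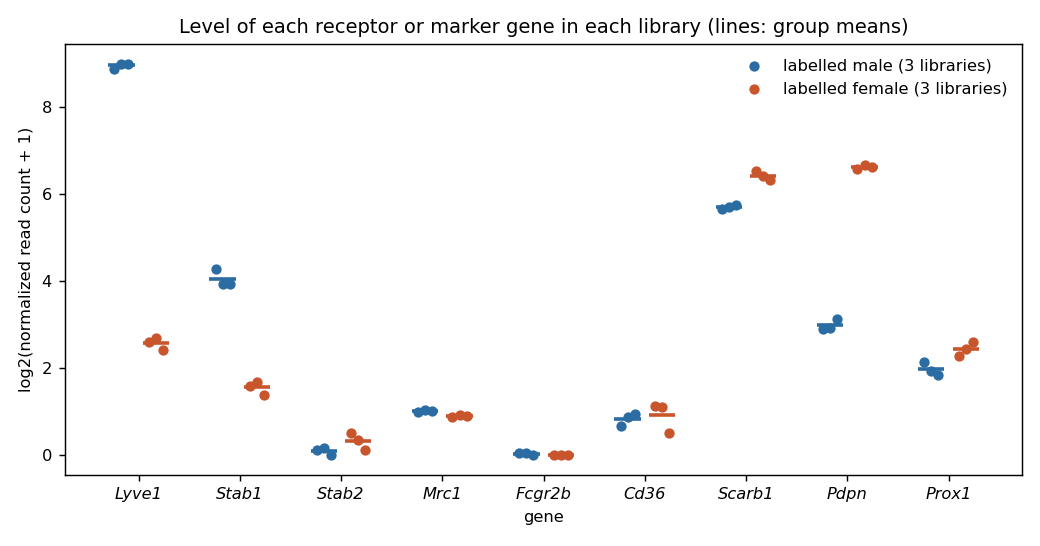
Normalized read counts of the 9 genes on a log2(value + 1) axis, with 1 point per library (blue, labelled male; orange, labelled female) and a line at each group mean of the plotted values. Lyve1 and Stab1 sit lower and Scarb1, Pdpn and Prox1 higher in the libraries labelled female, while Stab2, Mrc1, Fcgr2b and Cd36 lie near the bottom in both.

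Promoter sequence was available for 7 of the 9 genes in the RefSeq table (build GRCm38.p6). Lyve1 and Scarb1 were not among them. Of the tested genes with a promoter in the table, Stab1 and Pdpn differed most between the groups and in opposite directions, and the 250 bases before their annotated starts are therefore shown. The Stab1 window is chr14:31168642-31168891 and the Pdpn window chr4:143299565-143299814, both on the minus strand and written 5′ to 3′. Capitals mark matches to the motifs searched.
Stab1: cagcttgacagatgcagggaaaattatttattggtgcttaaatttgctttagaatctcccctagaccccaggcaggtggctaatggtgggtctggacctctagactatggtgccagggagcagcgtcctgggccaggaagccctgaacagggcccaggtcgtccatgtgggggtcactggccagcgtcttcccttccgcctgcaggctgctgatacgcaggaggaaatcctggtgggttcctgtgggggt
Pdpn: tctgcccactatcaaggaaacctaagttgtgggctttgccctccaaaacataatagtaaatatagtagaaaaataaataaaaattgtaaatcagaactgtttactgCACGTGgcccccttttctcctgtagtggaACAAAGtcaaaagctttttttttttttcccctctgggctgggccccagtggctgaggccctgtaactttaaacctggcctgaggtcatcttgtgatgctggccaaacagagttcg
The motifs were ACGTG (the core bound by hypoxia-inducible factors), GCGTG (the core bound by AHR), CACGTG (an E-box, which holds ACGTG on both strands), GATAAG (bound by GATA factors), ACAAAG (bound by SOX factors) and, for the same factors, ACAATG. Each was searched on both strands. The Pdpn window held the E-box CACGTG from 144 bases before the start, and from 115 bases before it the SOX motif ACAAAG. Over all 32851 promoter windows of the same length, 6.02% held the E-box, 16.6% held the hypoxia-inducible factor core and 16.5% held ACAAAG. None of the 6 motifs was found in the Stab1 window, and GCGTG, held by 28.2% of all windows, was in none of the 8 windows of the 7 genes (Prox1 has 2 starts). The GC content was 57.2% for Stab1 and 43.2% for Pdpn, against a median of 52.4%. A match describes letters only, and the reads of this series do not measure binding.

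Lyve1 encodes the hyaluronan receptor LYVE-1. Its normalized read count was 470, 513 and 513 in male replicates 4, 5 and 6, and 5.10, 5.48 and 4.37 in female replicates 4, 5 and 6. The groups lay far apart, and the libraries of a group lay close together. The female mean of 4.98 ± 0.566 was 1.0% of the male mean of 498 ± 24.8 (SD, n = 3 each). On the log2(value + 1) scale, which understates differences of weakly expressed genes, the difference was -6.39 (SE 0.09, limma adjusted p 2.41e-09). It ranked 3rd among all decreases, and 0.0239% of tested genes differed by more in either direction. In the libraries labelled male Lyve1 stood above 97.3% of genes by its read count, and in those labelled female above 25.6%. The female level still rested on 92 to 124 reads per library, well over the limit of detection.

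Stab1 encodes stabilin-1, a large scavenger receptor that takes up SPARC and modified lipoproteins. It was read at 18.5, 14.2 and 14.3 in male replicates 4, 5 and 6. In female replicates 4, 5 and 6 it was read at 2.03, 2.21 and 1.61. Every male library was above every female library, and male replicate 4 was the highest. The female mean of 1.95 ± 0.306 was 12.5% of the male mean of 15.7 ± 2.41 (SD, n = 3 each), a log2 difference of -2.49 (SE 0.14, limma adjusted p 1.30e-06), or -2.38 without male replicate 4. Stab1 ranked 291st among the decreases. An exon of Nt5dc2 overlaps Stab1 by 112 bases on the opposite strand, the strand setting of the counting is not given in the sources used here, and Nt5dc2 was also lower, from 126 ± 3.88 to 62.0 ± 0.718 (SD, n = 3 each). Its part in the Stab1 value was not tested.

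Stab2 encodes stabilin-2, the main hyaluronan clearance receptor of liver sinusoids. It was covered by 2, 3 and 0 reads in male replicates 4, 5 and 6 and by 10, 6 and 2 reads in female replicates 4, 5 and 6. Summed over a group, this gave a normalized read count of 0.0636 (95% exact Poisson interval 0.0206 to 0.148) in the libraries labelled male and 0.266 (0.157 to 0.420) in those labelled female. These intervals cover counting error only. The groups overlapped, and with no filter the limma adjusted p was 0.0999. Stab1 was thus read well above 3 reads in every library, and Stab2 was close to that limit.

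Mrc1 encodes the mannose receptor, which binds mannose-ended glycoproteins and collagen fragments. Its normalized read count was 0.995, 1.07 and 1.02 in the libraries labelled male and 0.830, 0.884 and 0.855 in those labelled female, from 18 to 29 reads each. The male values were all above the female ones, but the step was small, and with no filter the limma adjusted p was 0.199. Fcgr2b, the Fc receptor by which sinusoidal cells clear immune complexes, had 1, 1 and 0 reads in the male libraries and 0 in each of the 3 female libraries. A count of 0 in all 3 female libraries allows a level of up to 0.0443 (3 reads over the group), and no fold can be given.

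The set holds 2 class B scavenger receptors, Cd36 and Scarb1, and both were detected in every library. CD36 takes up fatty acids and oxidised lipoproteins and binds thrombospondin, and SR-BI (Scarb1) takes cholesterol esters from high-density lipoprotein. Cd36 was read at 0.581, 0.839 and 0.918 in the libraries labelled male and at 1.20, 1.15 and 0.427 in those labelled female. The groups overlapped, with the lowest value in female replicate 6, and with no filter the limma adjusted p was 0.668.

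Scarb1 was read at 49.6, 51.3 and 53.1 in male replicates 4, 5 and 6, and at 91.8, 84.6 and 78.8 in female replicates 4, 5 and 6. All female values exceeded all male values. The mean rose 1.66-fold, from 51.3 ± 1.76 to 85.1 ± 6.52 (SD, n = 3 each), a log2 difference of 0.72 (SE 0.07, limma adjusted p 4.34e-05). Differences of this size were common, as 32.1% of the genes tested differed by more.

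Pdpn encodes podoplanin, a mucin-like membrane protein that binds the platelet receptor CLEC-2 and marks lymphatic vessels. It was read at 6.51, 6.56 and 7.70 in male replicates 4, 5 and 6, and at 94.1, 101 and 98.5 in female replicates 4, 5 and 6. The groups lay wide apart. The mean rose 14.2-fold, from 6.92 ± 0.672 to 98.0 ± 3.60 (SD, n = 3 each), a log2 difference of 3.65 (SE 0.09, limma adjusted p 2.04e-08). Pdpn ranked 28th among all increases, and 0.843% of tested genes differed by more in either direction.

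Prox1, the transcription factor that sets lymphatic identity, was read at 3.44, 2.82 and 2.61 in male replicates 4, 5 and 6. It was read at 3.86, 4.46 and 5.03 in female replicates 4, 5 and 6. The groups did not overlap but came close, male replicate 4 being the nearest to the female libraries. The mean went from 2.96 ± 0.431 to 4.45 ± 0.587 (SD, n = 3 each), a log2 difference of 0.46 (SE 0.13, limma adjusted p 0.0130). The call was lost without male replicate 6 (difference 0.40, limma adjusted p 0.0506) and without female replicate 6 (0.39, limma adjusted p 0.0551). Prox1 and Pdpn are both lymphatic markers, and Pdpn differed far more than Prox1, while Lyve1, also a lymphatic marker, differed in the opposite direction.

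**Figure D2:**
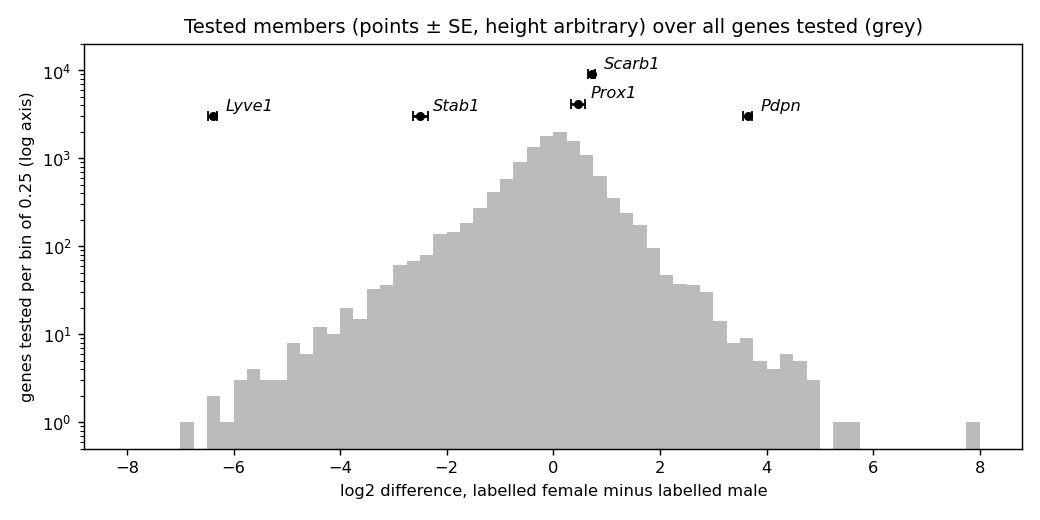
Histogram of the log2 difference (labelled female minus labelled male) of the 12568 genes tested, in bins of 0.25 with a log count axis, and the 5 tested genes as points with their SE at arbitrary heights. Lyve1 (-6.39) lies at the far left, Stab1 (-2.49) and Pdpn (3.65) in the tails, and Scarb1 (0.72) and Prox1 (0.46) within the bulk.

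Levels were compared between genes per kilobase of the longest coding transcript, on the deposited scale. In the libraries labelled male the order was Lyve1 at 172 ± 8.57 per kilobase, Scarb1 at 20.4 ± 0.697, Pdpn at 3.81 ± 0.370, Stab1 at 1.96 ± 0.301 and Prox1 at 0.374 ± 0.0545 (SD, n = 3 each). Below these came Cd36 at 0.229 and Mrc1 at 0.191, whose ranges overlapped, and then Stab2 at 0.00799 and Fcgr2b at 0.00749, whose ranges overlapped too. In the libraries labelled female Pdpn came first at 53.9 ± 1.98 per kilobase, followed by Scarb1 at 33.7 ± 2.59, Lyve1 at 1.72 ± 0.196 and Prox1 at 0.563 ± 0.0742 (SD, n = 3 each). Cd36 at 0.273 and Stab1 at 0.244 per kilobase overlapped, the range of Cd36 also held that of Mrc1 (mean 0.159), and Stab2 and Fcgr2b were again the lowest. Lyve1 and Pdpn thus exchanged places in the order.

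The make-up of the set moved with this. The summed normalized read count of the 9 genes was 549 to 592 in the libraries labelled male and 190 to 200 in those labelled female. Lyve1 took 85.5% to 86.9% of it in the male libraries and 2.30% to 2.74% in the female ones. Pdpn took 1.11% to 1.30% and 47.2% to 51.9%, and Scarb1 8.70% to 9.03% and 41.5% to 46.0%, in the same order. For each of these genes the shares of the groups did not overlap.

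**Figure D3:**
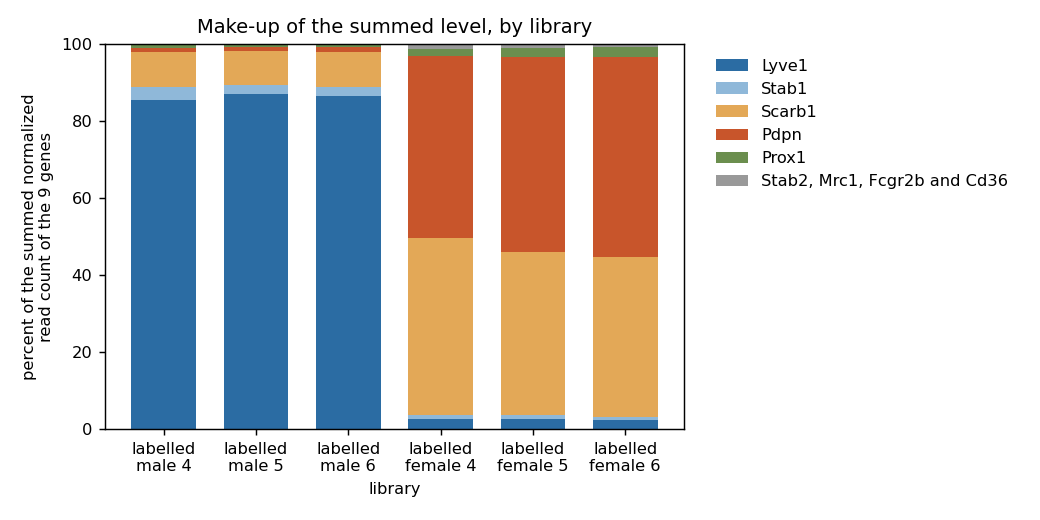
Stacked bars of the percent of the summed normalized read count of the 9 genes taken by each gene, for each of the 6 libraries. Lyve1 fills over 85% of each bar labelled male, whereas Pdpn and Scarb1 together fill most of each bar labelled female.

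The genes with the most similar profile were found by the root mean square distance between log2(value + 1) profiles over the 6 libraries, each centred on its own mean. With 2 groups this far apart, the distance mostly compares the size of the step. For Lyve1 the nearest were 8430408G22Rik (distance 0.248), Tgfbi (0.260) and Mgp (0.325), and for Stab1 they were Lonrf3 (0.0858), Ccdc3 (0.0879) and Pik3ip1 (0.110). For Pdpn the nearest was Wt1 (0.0781), a mesothelial transcription factor, followed by Amot (0.107) and Serpinb9e (0.149). This scale understates differences of weakly expressed genes, so a near profile need not mean a similar fold. The mean of Wt1 went from 0.101 to 12.8 (12624% of the male mean), and that of Pdpn from 6.92 to 98.0 (1415%). Ccdc3 went from 8.18 to 0.514, and Stab1 from 15.7 to 1.95. Scarb1 was nearest to Chid1 (0.0220) and Prox1 to Cdkn1c (0.0373).

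Other genes of sinusoidal endothelium did not share a single direction. Of 24 listed, 22 were in the table and 18 tested, of which 6 were called higher and 8 lower under the female label, with a median log2 difference of -0.17 against 0.01 over all genes tested. The counts of this and every later list stand beside 34.6% called higher and 34.6% lower over all genes tested. No list was tested as a set. On the log2(value + 1) scale, by which genes are named in each list, the largest increases were those of Ntn4 (netrin-4), from 3.64 ± 0.622 to 54.7 ± 3.87, and Wnt2, a growth factor made by sinusoidal cells, from 0.253 ± 0.0491 to 7.91 ± 0.885 (SD, n = 3 each). The largest decreases were those of the water channel Aqp1, from 490 ± 52.5 to 19.6 ± 1.38, and of Plxnc1, from 4.11 ± 0.531 to 0.105 ± 0.0329 (SD, n = 3 each). Gata4, a transcription factor of sinusoidal identity named after its values were seen, went from 3.75 ± 0.0909 to 32.1 ± 0.858 (SD, n = 3 each). The protease gene Ctsl, with the highest mean normalized read count of the list (uncorrected for length), did not pass the test (975 ± 70.9 and 913 ± 30.1, SD, n = 3 each). Clec4g and Dnase1l3, which define sinusoidal cells in the intact liver and were also named after their values were seen, had means of 0.0764 or less in both groups. The count of 8 lower genes fell to 6 without male replicate 4, to 5 without male replicate 5 and to 5 without male replicate 6. Gpr182, Fam167b and Plxnc1 were under 1 in every female library and passed the filter through the male libraries alone. They had too few values of at least 1 to be tested when any male library was left out. Wnt2 and Il1a likewise passed through the female libraries alone, and the count of 6 higher genes was 4 without any of these.

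Other lymphatic genes were likewise mixed. Of 20 listed, 18 were in the table and 12 tested, with 4 higher, 7 lower and a median log2 difference of -0.76. Ptx3 (pentraxin 3) rose from 13.3 ± 0.943 to 57.4 ± 10.1 and Nrp2, a co-receptor for lymphatic growth factors, from 30.0 ± 5.19 to 120 ± 7.56 (SD, n = 3 each). Lama5, a laminin chain, fell from 104 ± 10.5 to 21.4 ± 2.08, and Hhex, a transcription factor upstream of lymphatic genes, from 13.7 ± 2.05 to 2.37 ± 0.459 (SD, n = 3 each). The mechanosensitive channel gene Piezo1 had the highest mean normalized read count, uncorrected for length, at 364 ± 50.3 and 568 ± 35.0 (SD, n = 3 each), and was called higher.

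Of 23 other scavenger receptors, 21 were in the table and 18 tested, with 6 higher, 10 lower and a median log2 difference of -0.42. Colec12, a collectin-type scavenger receptor, fell from 485 ± 37.5 to 74.5 ± 5.74, and Scara3 from 127 ± 11.9 to 19.6 ± 3.94 (SD, n = 3 each). Ly75, of the mannose receptor family, rose from 11.5 ± 1.25 to 43.3 ± 1.20, and Megf10, a receptor for dying cells, from 1.82 ± 0.684 to 8.45 ± 0.381 (SD, n = 3 each). Lrp1, a large endocytic receptor, had the highest mean normalized read count of the list, with no correction for length, and did not pass the test (2135 ± 482 and 1662 ± 66.0, SD, n = 3 each, limma adjusted p 0.0601), with male replicate 4 at 2690 and the other male libraries at 1813 and 1903. Of 5 other Fc receptor genes, 3 were in the table and 2 tested. Fcgrt, the neonatal Fc receptor that recycles IgG and albumin, fell from 78.4 ± 4.13 to 20.9 ± 0.432, and Fcer1g, the shared signalling chain, rose from 0.0392 ± 0.0382 to 2.29 ± 0.325 (SD, n = 3 each). Fcer1g had too few values of at least 1 to be tested when any female library was left out, which took the count of higher Fc receptor genes from 1 to 0.

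Genes of the endocytic machinery beneath these receptors were called higher more often than lower. All 23 adaptor and coat genes were tested, with 13 higher, 2 lower and a median log2 difference of 0.21. Over all genes tested, 34.6% were called higher and 34.6% lower, and whether the list departs from these shares was not tested. Gulp1, an adaptor that binds the tail of stabilin-2, rose from 18.6 ± 0.983 to 41.7 ± 2.12, and Cltb, a clathrin light chain, from 57.7 ± 2.48 to 117 ± 6.32 (SD, n = 3 each). Clathrin heavy chain, Cltc, had the highest mean normalized read count, uncorrected for length, and rose from 839 ± 53.0 to 1052 ± 7.43 (SD, n = 3 each). Dab2, a clathrin adaptor for lipoprotein receptors, fell from 160 ± 5.28 to 93.2 ± 6.52, and Rab5c, of early endosomes, from 220 ± 3.84 to 185 ± 4.62 (SD, n = 3 each). Without male replicate 4 there were 4 lower genes in place of 2.

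Among genes for ligands and partners of the receptors, Tgfbi had a wider log2 difference (-6.82) than Lyve1 (-6.39), and the next widest was that of Thbs1 (2.73). Of 20 listed, 15 were tested, with 8 higher, 3 lower and a median log2 difference of 0.29. Tgfbi, a matrix protein cleared by the stabilins, fell from 335 ± 50.3 to 1.96 ± 0.264 (SD, n = 3 each), and Gdf15, a circulating stress cytokine, from 62.5 ± 15.4 to 34.3 ± 6.71 (SD, n = 3 each). Thbs1, which encodes thrombospondin-1 and is a ligand of CD36, rose from 444 ± 73.0 to 2941 ± 364 (SD, n = 3 each). Sparc, the stabilin-1 ligand, had the highest mean normalized read count over the 6 libraries, though not in those labelled female, and rose from 1993 ± 127 to 2545 ± 49.2 (SD, n = 3 each). Apob was called higher at a low and variable level, 1.08 ± 0.684 and 5.17 ± 3.18 (SD, n = 3 each), with groups that overlapped and male replicate 5, at 1.87, above the other male libraries at 0.664 and 0.706. Without female replicate 5 the count of higher genes was 5.

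In the list for lipid handling, 18 of 21 genes were tested, with 3 higher, 10 lower and a median log2 difference of -0.46. The fatty acid carrier Fabp4 had the highest mean normalized read count over the 6 libraries, though not in those labelled female, and fell from 1024 ± 111 to 156 ± 20.4, and the fatty acid transporter Slc27a3 fell from 37.4 ± 7.42 to 6.97 ± 0.244 (SD, n = 3 each). Lipg, an endothelial lipase that acts on high-density lipoprotein, rose from 4.83 ± 0.801 to 7.26 ± 1.60, and the sterol exporter Abcg1 from 2.98 ± 0.223 to 4.51 ± 1.01 (SD, n = 3 each). The count of higher genes was 1 without male replicate 5 and 1 without female replicate 4.

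**Figure D4:**
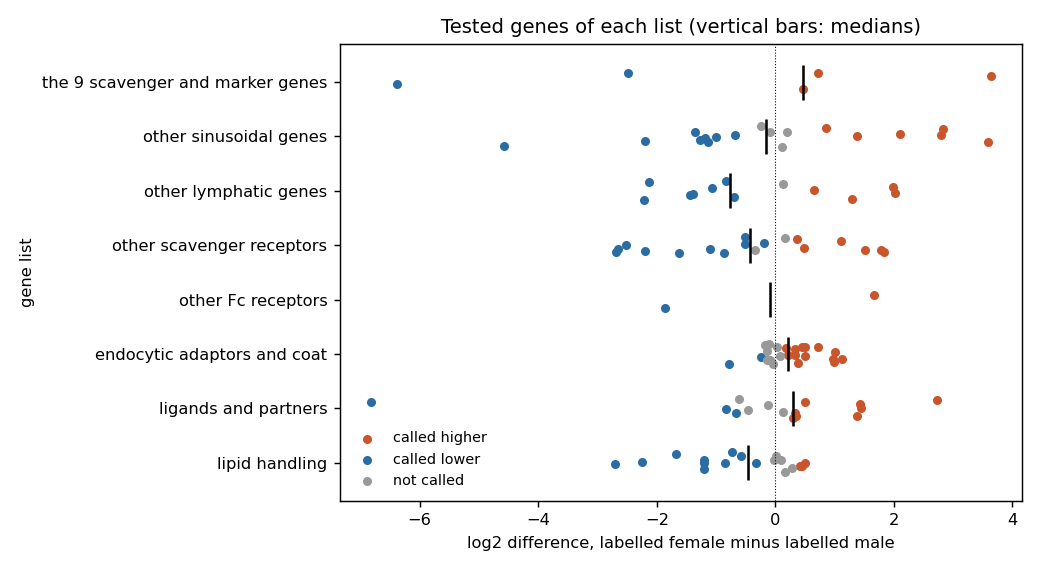
Log2 difference (labelled female minus labelled male) of each tested gene of the 9 and of 7 related lists, coloured by call, with a bar at each list's median and random vertical scatter. Calls in both directions appear in every list, and the single adaptor and coat genes span the narrowest range.

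Markers of other cells were read beside these values. In bulk RNA fewer cells of a type and less RNA per cell cannot be told apart. Of 16 general endothelial markers, 15 were tested, with 14 lower and 1 higher and a summed level of 2923 to 2997 in the libraries labelled male and 1402 to 1476 in those labelled female. The shares over all genes tested were 34.6% lower and 34.6% higher. Vwf fell from 37.9 ± 2.77 to 0.491 ± 0.104 and Plvap from 142 ± 19.5 to 8.20 ± 2.62, while Eng rose from 313 ± 21.3 to 415 ± 13.9 (SD, n = 3 each). Cdh5, with the highest mean normalized read count of the list over the 6 libraries, though below Eng in those labelled female, fell from 924 ± 5.58 to 387 ± 11.9 (SD, n = 3 each). Their part in the lower Lyve1 and Stab1 was not tested.

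Mesothelial markers moved with Pdpn in part. Of 10 listed, 9 were in the table and 8 tested, with 6 higher and 2 lower, and their summed level was 525 to 616 in the male libraries and 553 to 568 in the female ones. Over the whole table, 34.6% of genes tested were called higher and 34.6% lower. Upk1b rose from 0.582 ± 0.0769 to 35.3 ± 5.98 and Msln (mesothelin) from 19.4 ± 1.97 to 332 ± 29.6 (SD, n = 3 each). Krt19 fell from 461 ± 47.7 to 116 ± 20.2 and Krt18 from 96.0 ± 2.20 to 49.7 ± 4.97 (SD, n = 3 each). Of 14 stellate, mural and fibroblast markers, 12 were tested, with 3 higher and 9 lower and a summed level of 2894 to 3727 and 3401 to 4061. Acta2 rose from 78.6 ± 47.9 to 1694 ± 187 and Tagln from 52.1 ± 27.5 to 1057 ± 142, whereas Pdgfrb fell from 133 ± 3.76 to 14.3 ± 1.17 and Col3a1 from 1266 ± 249 to 226 ± 18.9 (SD, n = 3 each). Male replicate 4 set much of the male level of Acta2, at 134 against 56.4 and 45.9 in male replicates 5 and 6. The part of such cells in the Pdpn difference was not tested.

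Most macrophage markers were near 0. Of 16 listed, 12 were in the table and 3 tested, with 2 higher and 1 lower, and 8 of the 12, Ptprc, Tyrobp, Spi1 and the C1q genes among them, stayed under 1 in every library. The summed level was 7.47 to 9.42 in the libraries labelled male and 10.4 to 12.9 in those labelled female. Their part in the values of Lyve1, Stab1 and Mrc1 was not tested. Fcer1g, given above among the Fc receptor genes, rose from 0.0392 ± 0.0382 to 2.29 ± 0.325 (SD, n = 3 each). Csf1r rose from 3.47 ± 0.648 to 5.59 ± 0.854 and Cd14 fell from 4.70 ± 0.254 to 2.19 ± 0.187 (SD, n = 3 each). Of 12 hepatocyte markers, 8 were in the table and 6 of these stayed under 1 in every library. They summed to 7.42 to 12.4 in the male libraries and 0.309 to 0.540 in the female ones, mostly Ahsg at 7.77 ± 2.16 and 0.0147 ± 0.0255 (SD, n = 3 each). None of the 10 lymphocyte markers was in the table.

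**Figure D5:**
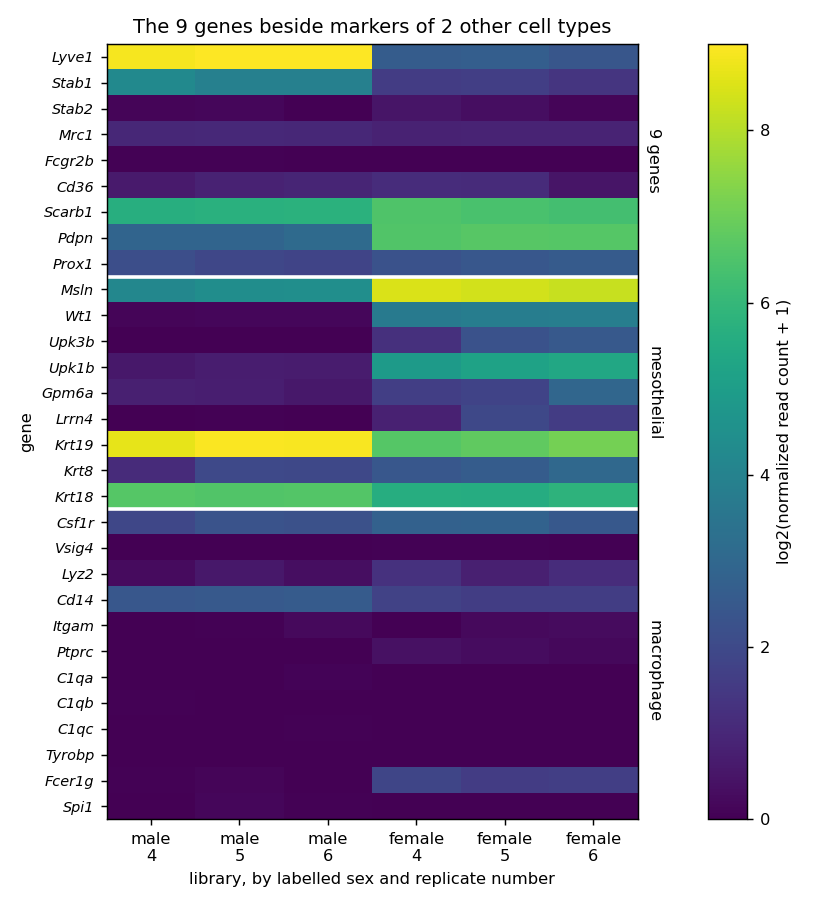
Heat map of log2(normalized read count + 1) in each library for the 9 genes, 9 mesothelial markers and 12 macrophage markers. Msln, Wt1 and Upk1b are brighter in the libraries labelled female than in those labelled male, as is Pdpn, Krt19 is brighter in those labelled male, and most macrophage markers are dark throughout.

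The authors' deposited table compares the same groups. In it Lyve1 has a signed fold change of -99.9 (false discovery rate 6.35e-06), Pdpn 14.1 (0.00316) and Scarb1 1.66 (0.0286), each under the threshold of 0.05. The authors' deposited table gives Stab1 a fold change of -8.01 with a false discovery rate of 0.0995 and Prox1 one of 1.5 with 0.671, so neither passes there. It calls 3 of the 9 genes, beside 25.8% of all 13595 genes.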

How the data were processed

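Per the labels' protocols, Trizol and a column kit were used to extract RNA, and poly(A)-enriched libraries were made with a Kapa HyperPrep kit. The submitters' processing notes name Bowtie2, RSEM, edgeR and the build mm39. The annotation and the rule for a detectable gene are not given in the sources used here. The deposited signal values are whole reads that the authors divided by 1 factor per library: with a tolerance of 0.01 read, 100% of the values in each column were whole multiples of its smallest value. Per the file headers, the authors also give a signed linear fold change (the score column) and, in the deposited p-value columns, a p and a false discovery rate for the same groups. All 6 columns were assigned to samples by title.

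Differences were tested with limma 3.58.1 in R 4.3.3 (eBayes with a trend) on log2(value + 1) over the 12568 genes for which 3 or more libraries reached a value of 1, with Benjamini-Hochberg adjustment over all of them and a threshold of 0.05. Alternatives were RLE, TMM and quantile scaling, a pseudocount of 0.1, no filter, a filter of 10 reads in each library, a replicate block, edgeR 4.0.16, DESeq2 1.42.0 and voom on recovered reads, and each library left out. The scripts were tested on simulated reads in which few genes changed and no library stood apart, unlike these data. The genes and lists were chosen with earlier results of these data known. From each list the text names the 2 largest increases and decreases among calls and the gene with the highest mean value over the 6 libraries. From each profile comparison it names up to 3 nearest genes. Lengths come from GENCODE M21 and promoters from RefSeq, both on GRCm38 and matched by symbol, so no position is given from the authors' build.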

Additional observations from a re-analysis of the deposited data

How the results depend on the processing

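The whole-table count of 8704 genes and the counts among the 9 genes (5 called, 3 higher and 2 lower) stayed within 1.5 times under all 16 alternatives. Of 80 values recomputed for Lyve1, Stab1, Scarb1, Pdpn and Prox1, 78 kept direction and call, and the 2 exceptions were Prox1 without male replicate 6 and without female replicate 6. Lyve1 ran from -6.65 to -6.30, Stab1 from -3.01 to -2.38, Scarb1 from 0.66 to 0.77, Pdpn from 3.61 to 3.81 and Prox1 from 0.39 to 0.58 on the log2 scale. With at least 10 reads in every library, 5 sinusoidal genes were lower and 0 Fc receptor genes higher, as fewer genes are tested there. Quantile scaling left 1 adaptor or coat gene lower, and the cause was not tested. Over the fits that each left out 1 library, counts ran from 5 to 8 for lower sinusoidal genes, from 2 to 4 for lower adaptor and coat genes, from 5 to 8 for higher ligand and partner genes, from 1 to 4 for higher lipid genes and from 0 to 1 for higher Fc receptor genes. In the sinusoidal and Fc receptor lists, genes high in only 1 group fell under the filter in some of these fits. Same-numbered libraries did not deviate together (correlations of -0.09, -0.03 and -0.17 across genes). With 3 libraries per group, and male replicate 4 standing apart, these correlations cannot exclude that the numbers pair libraries. With the replicate block, 8314 genes and the same counts of 5, 3 and 2 among the 9 genes were called, with Prox1 at a limma adjusted p of 0.0347. Depth limits what can be said of Stab2, Fcgr2b, Cd36 and Mrc1, which rested on 0 to 29 reads per library.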
